A study of Mus musculus with 2 samples.

Results

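The type 2 cytokine genes Il4, Il5 and Il13 and the genes Areg and Csf2 were followed through CD45+ cells of mouse visceral adipose tissue (VAT). These 5 genes, of 26981 listed in the files, were chosen by name as the main secreted products of type 2 lymphocytes. VAT was taken from wildtype C57BL/6 mice that were 15 weeks old and kept under specific pathogen-free conditions. The mice drank normal water (NW) or were treated with antibiotics (ABX), a treatment that depletes gut bacteria. CD45+ cells were enriched with magnetic beads, stained with oligonucleotide-tagged antibodies and captured in microwells. There was 1 library per condition, and the number of mice behind each was not given in the sources used here. Every difference below therefore compares these libraries, has no replicate check and carries no p-value. Intervals are 95% and cover counting error only. Those of UMI counts treat each UMI as independent, which UMIs of the same cell are not, so they are a lower limit of the error.

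IL-4, IL-5 and IL-13 are the cytokines of type 2 immunity. IL-5 keeps eosinophils alive in adipose tissue, while IL-4 and IL-13 act through a shared receptor chain and drive alternative activation of macrophages. Amphiregulin, encoded by Areg, is a ligand of the epidermal growth factor receptor that group 2 innate lymphoid cells (ILC2) and regulatory T (Treg) cells release during tissue repair. Csf2 encodes GM-CSF, a growth factor of myeloid cells. In VAT, ILC2 and many Treg cells carry ST2, the receptor for IL-33, which is encoded by Il1rl1.

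Cells were kept with at least 500 gene UMIs (unique molecular identifiers, each standing for 1 captured mRNA molecule), at least 200 genes and at most 25% mitochondrial UMIs. The NW library kept 12474 of 17662 barcodes with a median of 5092 UMIs, and the ABX library 12724 of 17785 with a median of 3845.5. Of 371 barcodes found in both libraries, 196 passed in both, and none of these had a UMI of the same one of the 5 genes in both. The cells formed 28 clusters without use of the 5 genes, and marker genes gave 16 named classes and 7 unnamed clusters. Of these, 18 had at least 50 cells in each library. Levels are given as CPM, the UMIs of a gene scaled to 1e6 gene UMIs of the class, and ratios as log2 of ABX over NW. Clusters are not cell types sorted by protein, so each class is called "-like".

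Il4, Il13, Il5 and Csf2 share a stretch of chromosome 11 (build GRCm38). From left to right, Kif3a ends at 53601967, Il4 occupies chr11:53602982-53618669 on the minus strand, Il13 chr11:53631324-53634702 on the minus strand and Il5 chr11:53720794-53725106 on the plus strand. Rad50, a DNA repair gene whose body holds control elements of this cytokine locus, lies between Il13 and Il5. Csf2 lies further on at chr11:54247271-54249667, minus strand, 15.6 kb from Il3. Areg is on another chromosome, at chr5:91139599-91148432 on the plus strand, beside the related growth factor gene Ereg.

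The 250 bases before each gene's start are shown because the 5 genes, of which 4 share a locus, differed in where and how far their levels moved. They were taken from RefSeq annotation on GRCm38.p6, read 5′ to 3′ on the gene's strand. All 5 genes matched the RefSeq table; Il4 had 2 windows there, and only the one at its upstream start is shown. The RefSeq start of Csf2 lies upstream of the gene end given above, which came from GENCODE. Capitals mark matches to GATA sites (a GATA core with T or A before it and A or G after it), the AP-1 site TGANTCA, the NFAT core TTTTCC and the cAMP response element TGACGTCA, searched on both strands, and the TATA box TATAAA, searched on the gene's strand.
Il4, chr11:53618666-53618915, minus strand: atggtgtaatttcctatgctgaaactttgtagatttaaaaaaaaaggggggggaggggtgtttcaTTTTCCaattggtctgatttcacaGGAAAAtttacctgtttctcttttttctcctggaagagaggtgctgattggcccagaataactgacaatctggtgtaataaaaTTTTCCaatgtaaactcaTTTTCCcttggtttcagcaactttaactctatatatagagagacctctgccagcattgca
Il13, chr11:53634703-53634952, minus strand: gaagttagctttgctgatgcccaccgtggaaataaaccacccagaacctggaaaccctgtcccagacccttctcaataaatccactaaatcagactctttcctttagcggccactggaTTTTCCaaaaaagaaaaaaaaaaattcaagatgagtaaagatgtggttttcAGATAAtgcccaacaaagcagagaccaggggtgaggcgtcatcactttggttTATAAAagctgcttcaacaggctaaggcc
Il5, chr11:53720544-53720793, plus strand: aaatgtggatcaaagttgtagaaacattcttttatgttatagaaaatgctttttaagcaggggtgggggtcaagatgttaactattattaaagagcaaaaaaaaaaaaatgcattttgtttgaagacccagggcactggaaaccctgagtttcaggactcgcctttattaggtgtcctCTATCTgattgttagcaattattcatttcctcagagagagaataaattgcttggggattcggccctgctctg
Csf2, chr11:54249900-54250149, minus strand: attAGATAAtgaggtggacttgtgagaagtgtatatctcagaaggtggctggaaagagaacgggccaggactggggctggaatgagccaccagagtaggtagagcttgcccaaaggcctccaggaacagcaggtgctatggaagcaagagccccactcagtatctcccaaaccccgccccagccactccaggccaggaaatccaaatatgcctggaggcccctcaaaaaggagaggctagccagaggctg
Areg, chr5:91139349-91139598, plus strand: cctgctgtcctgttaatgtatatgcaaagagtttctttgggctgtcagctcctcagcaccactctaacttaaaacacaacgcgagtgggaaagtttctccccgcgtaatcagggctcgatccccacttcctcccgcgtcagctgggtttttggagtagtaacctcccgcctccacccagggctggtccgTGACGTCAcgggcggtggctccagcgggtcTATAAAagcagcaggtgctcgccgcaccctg

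The Il4 window held 4 matches to the NFAT core, of which 1 was on the opposite strand (GGAAAA, 161 to 156 bases before the start). The window not shown held a GATA match (80 to 75 bases before its start) and no match to the NFAT core. Il13 held 1 match each to the NFAT core, GATA and the TATA box. Il5 held a GATA match on the opposite strand, 72 to 67 bases before the start, and Csf2 a GATA match 247 to 242 bases before it. Areg held no GATA or NFAT match, but the cAMP response element 61 to 54 bases and a TATA box 31 to 26 bases before the start. No window of the 5 held the AP-1 site. Over all 32817 promoter windows of the table, GATA was matched in 26.6%, the NFAT core in 20.4%, the TATA box in 7.60%, AP-1 in 6.75% and the cAMP response element in 1.55%. No matches overlapped. These are matches of letters and not measured binding.

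ILC2-like cells held most of the UMIs of Il5, Il13 and Csf2 in both libraries, but not those of Il4. This class was cluster 3, with 767 cells in NW and 1242 in ABX. It carried 11 of 12 ILC2 markers and was led by genes such as Calca, Arg1, Il1rl1, Gata3 and Klrg1. It held 223 of 301 Il5 UMIs in NW (74.1%, exact interval 68.7 to 78.9) and 77 of 87 in ABX (88.5%, 79.9 to 94.4). For Il13 it held 80 of 86 and 7 of 9, and for Csf2 542 of 729 (74.3%, 71.0 to 77.5) and 386 of 535 (72.1%, 68.1 to 75.9). For Areg it held 171 of 427 in NW (40.0%, 35.4 to 44.9) and 42 of 65 in ABX (64.6%, 51.8 to 76.1). Treg-like cells held a further 126 Areg UMIs in NW (29.5%, 25.2 to 34.1) and 10 in ABX (15.4%, 7.63 to 26.5). Il4 went the other way, with 13 of 151 UMIs in ILC2-like cells of NW (8.61%) and 20 of 97 in ABX (20.6%). Macrophage-like cells held 110 (72.8%) and 57 (58.8%) of the Il4 UMIs, spread thinly over by far the most abundant class.

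**Figure D1:**
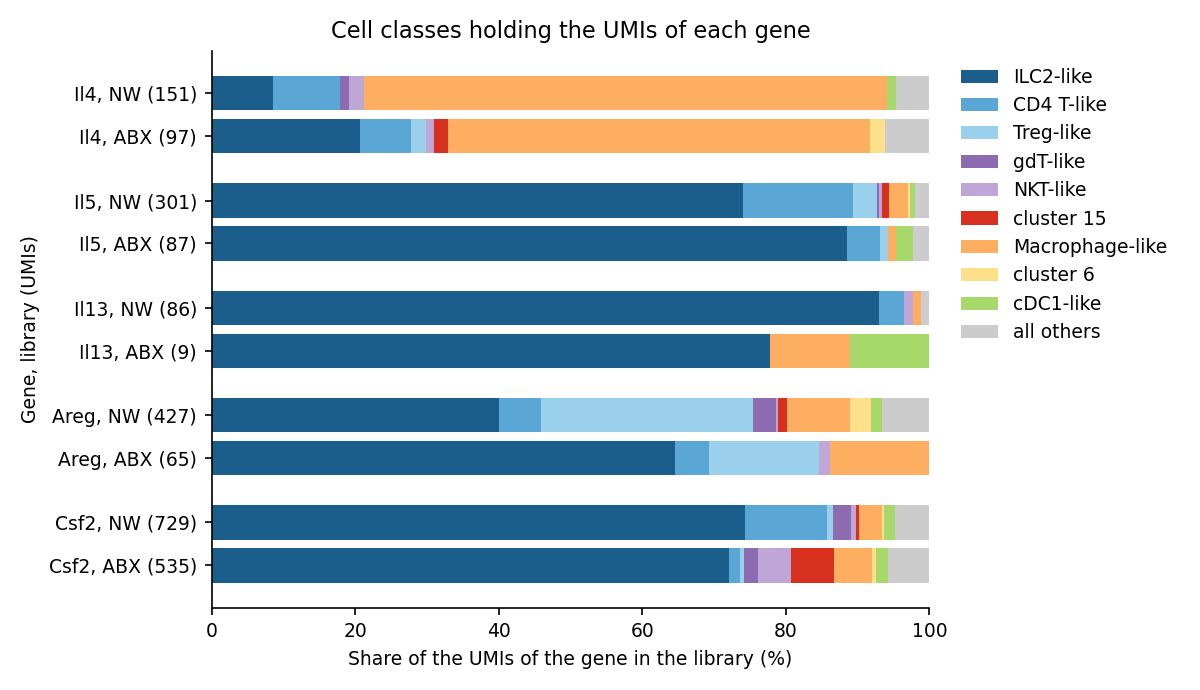
Share of each gene's UMIs (x axis, %) held by each cell class in the NW and ABX libraries (y axis, with the number of UMIs in brackets). ILC2-like cells (dark blue) make up most of the Il5, Il13 and Csf2 bars, Treg-like cells (pale blue) a visible part of Areg, and macrophage-like cells (orange) most of Il4.

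Per UMI sequenced, the order of the classes differed between genes. Il5, Il13 and Csf2 had their highest level in ILC2-like cells of both libraries, with intervals of the ratio to the next class above 0. For Il5 in NW the level was 65.1 CPM in ILC2-like cells, then 13.7 in CD4 T-like cells and 6.23 among Treg-like cells. CD4 T-like cells stood above Treg-like cells (log2 1.14, 0.13 to 2.29). In ABX ILC2-like cells had 17.1 CPM and no other class above 2.11, and the neighbours below ILC2-like cells did not differ beyond their counting intervals. For Areg the highest level was in Treg-like and not ILC2-like cells, at 78.5 against 49.9 CPM in NW (log2 0.65, 0.31 to 0.99) and 21.1 against 9.31 in ABX (1.18, 0.02 to 2.20). The ABX value rests on 10 UMIs in 4 Treg-like cells. For Csf2 the next classes in NW were CD4 T-like (24.7 CPM) and gdT-like cells (18.2), whose intervals overlapped. Il4 had no class above the next beyond its interval, with NW levels of 4.17 CPM for CD4 T-like, 3.796 for ILC2-like and 3.07 for macrophage-like cells, and ABX levels of 2.48, 4.43 and 2.51. The neutrophil-like and Il18r1-led classes above them in NW had 2 Il4 UMIs each.

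A UMI in a cell does not by itself show expression, since free RNA of the suspension can enter any well. The share of cells with a UMI was therefore set beside that of B-like cells (345 and 938 cells, with a median depth of 4009 and 3900 UMIs), taken as a background of free RNA. Whether B-like cells express Csf2 themselves was not tested, and 1 NW cell held 6 of their 9 Csf2 UMIs. No B-like cell of either library had a UMI of Il5, Il13 or Areg, which allows a share of up to 0.870% for NW and 0.320% for ABX (3 cells of the total). Csf2 was found in 1.16% and 0.426% of B-like cells, and Il4 in 0% and 0.320%, with exact intervals for Csf2 of 0.317 to 2.94 and 0.116 to 1.09. Among ILC2-like cells (median 4004 and 3462 UMIs), Il5 was found in 11.2% (9.07 to 13.7) in NW and 3.46% (2.52 to 4.64) in ABX. Csf2 was found in 16.04% (13.5 to 18.8) and 13.3% (11.4 to 15.3), and Areg in 6.91% (5.22 to 8.94) and 2.01% (1.31 to 2.96). Il4 was found in 1.43% and 1.53% of ILC2-like cells against 1.72% and 1.014% of macrophage-like cells. With every cell thinned to 1000 UMIs, which left out 9 NW and 24 ABX ILC2-like cells that were shallower, the shares were 4.23% and 1.299% for Il5, 6.76% and 5.47% for Csf2, and 2.69% and 0.737% for Areg.

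Within ILC2-like cells, Il5, Il13 and Areg were lower in ABX, Csf2 was lower by a smaller factor, and Il4 was not distinguishable. Of the 5 genes, 3 were at least 2-fold lower and none at least 2-fold higher. Among all 10803 genes with at least 20 UMIs in this class, 2.45% were at least 2-fold lower and 1.43% at least 2-fold higher, with a median log2 ratio of 0.00. Il5 went from 65.1 CPM in NW to 17.1 in ABX (223 and 77 UMIs; log2 -1.93, -2.32 to -1.55), and 0.463% of the genes had a ratio as low or lower. Areg went from 49.9 to 9.31 CPM (171 and 42 UMIs; -2.42, -2.95 to -1.93), and 0.278% of genes were as low. Csf2 went from 158 to 85.6 CPM (542 and 386 UMIs; -0.89, -1.08 to -0.70), and 3.17% of genes were as low. Il4 stood at 3.796 and 4.43 CPM (13 and 20 UMIs; 0.22, -0.85 to 1.35), and a difference was not detectable at this depth.

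Il13 had 80 UMIs in NW and 7 in ABX (23.4 and 1.55 CPM; -3.91, -5.27 to -2.80), but they sat in 5 cells of each library. A single NW cell held 57 of the 80, or 71.3%. Without the cell with the most UMIs in each library, the log2 ratio was -2.92 (-4.91 to -1.37). As a share of cells, Il13 was found in 0.652% of ILC2-like cells in NW and 0.403% in ABX.

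The libraries also differed within ILC2-like cells in markers of other cells. The 4 granule genes of mast cells Cpa3, Mcpt4, Tpsb2 and Cma1 had 1376 UMIs in NW and 13 in ABX, of which 1351 were in 3 NW cells. Those 3 cells held 4 Il4, 1 Areg, 1 Csf2, 0 Il5 and 0 Il13 UMIs. Without any cell that had a mast cell UMI, the log2 ratios were -2.01 for Il5, -2.44 for Areg, -0.93 for Csf2 and 0.65 for Il4, so those of Il5, Areg and Csf2 were as large without them. The macrophage markers summed to 1791 CPM in NW and 1166 in ABX with all 8 detected in both, and the 5 mature dendritic cell markers to 228 and 23.3 CPM, also all detected. The whole mast cell list of 9 genes summed to 879 and 353 CPM, with Ms4a2 and Gata2 at 0 in ABX, and the 7 basophil genes to 26.3 and 1.77, with 1 at 0 in NW and 5 in ABX. The 6 eosinophil genes summed to 5.84 and 5.54 CPM. Immediate early and heat shock genes, which rise with tissue dissociation, made up 2.52% of the class total in NW, compared with 2.19% in ABX. The part of these dendritic cell, macrophage, basophil and stress transcripts in the cytokine ratios was not tested.

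**Figure D2:**
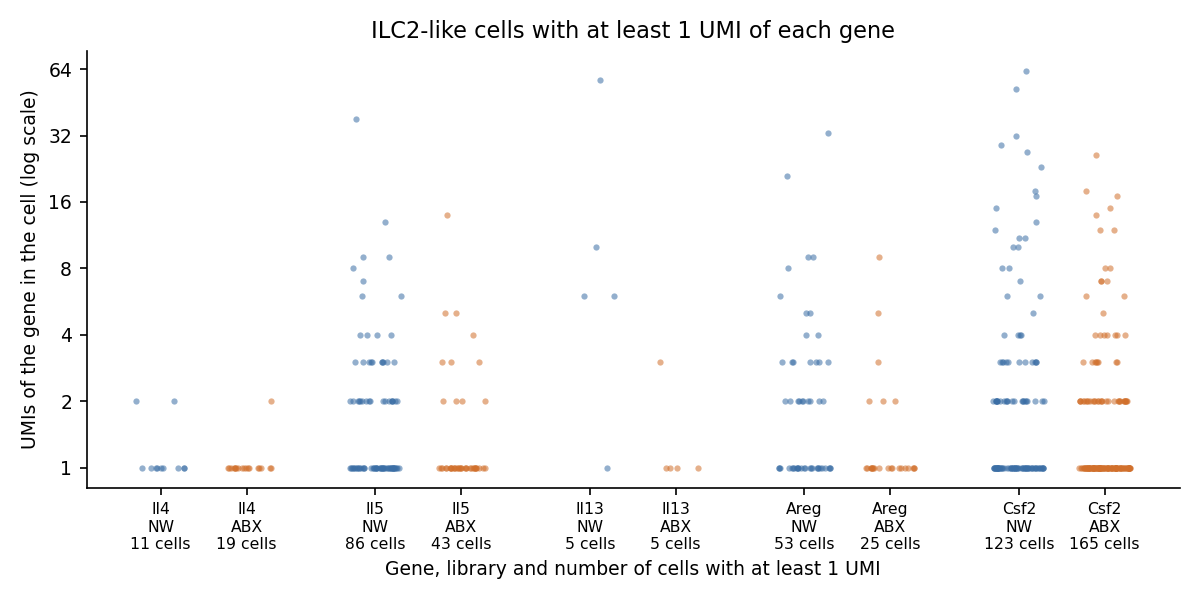
UMIs of each gene (y axis, log scale) in every ILC2-like cell with at least 1 UMI, for NW (blue) and ABX (orange). Each point is a cell, spread sideways for visibility, and the axis gives the number of such cells. Most cells with Il4, Il5 or Csf2 held 1 UMI, and the highest Csf2 cells reached 63 in NW and 26 in ABX.

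Most cells with Il4, Il5 or Csf2 held 1 UMI, and a few cells held very many. Areg was alike in ABX, whereas in NW 26 of its 53 positive cells held 1. Il5 was found in 86 NW and 43 ABX ILC2-like cells, and 47 and 32 of these had 1 UMI. The highest cell held 38 UMIs in NW and 14 in ABX, and the mean over positive cells was 2.59 and 1.79. For Areg, 53 and 25 cells were positive, the highest held 33 and 9 UMIs, and the mean was 3.23 and 1.68.
Csf2 differed more in the UMIs per positive cell than in the share of positive cells. It was detected in 123 cells of NW and 165 of ABX, but the mean per positive cell was 4.41 in NW and 2.34 in ABX. Cells with at least 10 Csf2 UMIs numbered 15 of 767 in NW and 7 of 1242 in ABX. Counted as a share of cells with a UMI, the log2 ratio of Csf2 was -0.27, against -0.89 by UMIs. Without the 5 cells with the most Csf2 in each library it was -0.60. For Il5 the ratio of shares was -1.70 and for Areg -1.78. Il4 never exceeded 2 UMIs in an ILC2-like cell.

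The cell richest in type 2 cytokines was an ILC2-like cell of NW with 6744 UMIs in all. It held 57 Il13, 38 Il5, 9 Areg and 1 Csf2 UMIs beside 34 of Il1rl1 and no Cd3e. A second NW cell held 10 Il13, 7 Il5 and 12 Csf2 UMIs. Csf2 was highest in a different NW cell, with 63 UMIs, 2 Il5 and no Il13 or Areg. Areg was highest in yet another, with 33 UMIs and none of the other 4 genes. In ABX the highest Il13 cell held 3 Il13, 9 Areg, 17 Csf2 and 1 Il5 UMI. The same cell was highest for Il5 and Il13 in NW and for Il13 and Areg among the ABX ILC2-like cells, while the other genes had different top cells. Over all classes, 44 NW and 17 ABX cells had at least 6 UMIs of one of the genes, and 30 and 15 of these were ILC2-like.

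Any of the 5 genes was found in 230 of 767 ILC2-like cells in NW (29.99%) and in 230 of 1242 in ABX (18.5%). A single gene was found in 187 and 207 of these cells. The most common patterns in NW were Csf2 alone (89 cells), Il5 alone (53), Areg alone (33) and Il5 with Csf2 (22). In ABX, Csf2 alone was again the most common, Il5 alone was found in 27 cells, Areg alone in 16 and Il5 with Csf2 in 10. No cell held all 5, and 1 cell in each library held 4. Cells with more genes detected were deeper, with a median of 3891 UMIs for none and 5006 for 2 in NW, and 3374 and 4686 in ABX.

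Csf2 was found in a larger share of Il5-positive than of Il5-negative cells in both libraries, although most cells with either gene held it without the other. In NW, 26 of 86 Il5-positive ILC2-like cells had Csf2 (30.2%, 20.8 to 41.1) against 97 of 681 Il5-negative ones (14.2%, 11.7 to 17.1). In ABX the shares were 13 of 43 (30.2%, 17.2 to 46.1) and 152 of 1199 (12.7%, 10.8 to 14.7). Areg was found in 11.6% of Il5-positive and 6.31% of Il5-negative cells in NW, with overlapping intervals, and in 9.30% (2.59 to 22.1) and 1.75% (1.09 to 2.66) in ABX. For Csf2 in Areg-positive against Areg-negative cells the intervals overlapped in NW (20.8% and 15.7%) and nearly touched in ABX (8 of 25 cells, 14.95 to 53.5%, and 12.9%, 11.1 to 14.91). Of the 11 Il4-positive NW cells none had Il5, Il13 or Csf2, and of the 19 in ABX 2 had Csf2 and 1 had Il5, too few to tell these shares from those of Il4-negative cells. Il5-positive cells had a median of 4546 UMIs against 3937 in NW, and 3871 against 3441 in ABX. The shares among positive cells were recounted under other settings, 1 of them limited to cells of middle depth. Of these 66 values, 64 stayed within the main interval. Negative cells were not recounted, so the part of depth in the contrast between positive and negative cells was not tested.

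**Figure D3:**
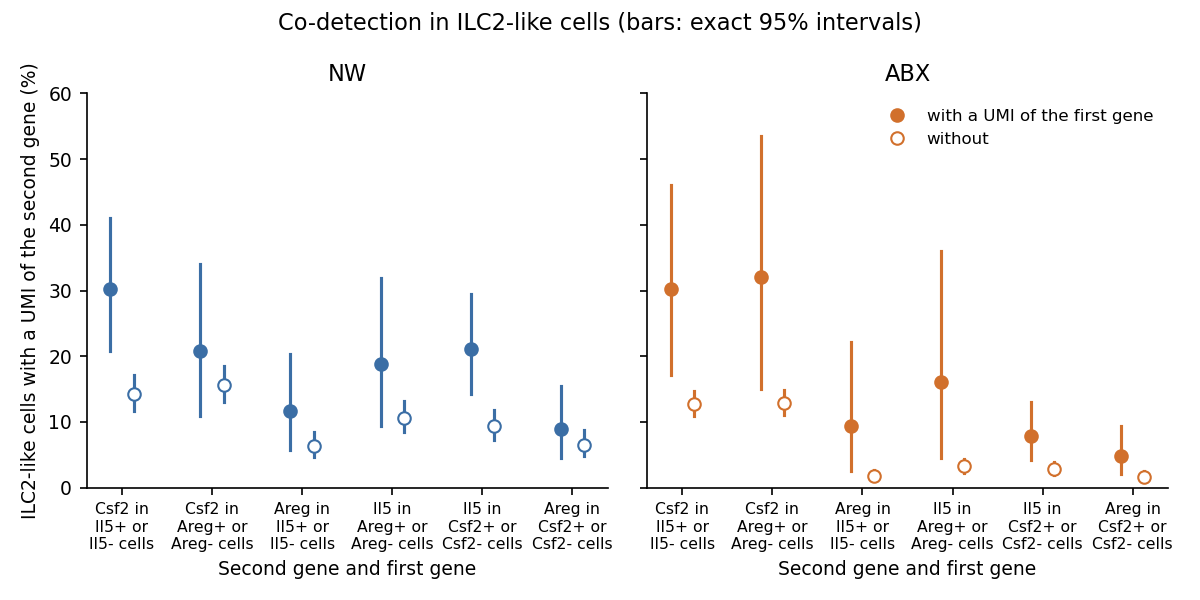
Percentage of ILC2-like cells with a UMI of the second gene (y axis) among cells with (filled) and without (open) a UMI of the first gene, in NW (left) and ABX (right). Bars are exact 95% intervals for counting error. Csf2 was found in 30.2% of Il5-positive cells in both libraries, against 14.2% and 12.7% of Il5-negative cells.

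The surface antibodies gave a readout of the same cells that was not used to choose the genes. Il5-positive ILC2-like cells had a median of 51 CD25 antibody UMIs in NW against 35 in Il5-negative cells, and 67 against 42 in ABX. CD25 is the high-affinity chain of the IL-2 receptor, a survival receptor of ILC2 and Treg cells. For CD44, an adhesion receptor of activated lymphocytes, the medians were 252 against 172 in NW and 195 against 149 in ABX. For CD69, an early activation marker, they were 20 against 18 and 13 against 9. Areg-positive cells differed from the rest in NW (CD25 55 against 35, CD69 26 against 18) but not in the same way in ABX (42 against 42 and 6 against 9). For Il5-positive against Il5-negative cells, the CD4 antibody had a median of 1 against 1 in NW and 0 against 1 in ABX. Csf2-positive cells stood close to the rest for CD25, at 37 against 35 and 43 against 42. For CD44 they had 207 against 173.5 in NW and 154 against 152 in ABX. Areg-positive cells had CD44 medians of 287 against 174 in NW and 165 against 152 in ABX. The interquartile ranges of the positive and negative cells overlapped in all of these, so they describe shifted medians of broad distributions. The antibodies also served in the clustering, but only through the class and not through the genes. Antibody counts were not scaled for depth, and Il5-positive cells were deeper, as given above. The part of depth in these medians was not tested.

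ILC2-like cells with a UMI of Il5 or Areg (129 in NW, 64 in ABX) were also compared with the other 638 and 1178 cells of the class for all genes other than the 5. For the log2 ratios of this comparison a small constant was added to both levels. They are therefore smaller than the CPM values imply, most of all for rare genes. Ranked by the smaller of these log2 ratios in both libraries, the genes most raised were Gadd45b, Ccl1, Tnf, Furin, Stmn1, Mex3a, Sox4, Lif, Bhlhe40 and Ccr4. Of the genes set aside, Csf2 had log2 ratios of 2.15 in NW and 1.52 in ABX, above the smaller ratio of each gene in this list, and Il13 3.22 and 1.23. Gadd45b, a stress and NF-κB response gene, stood at 350 CPM with and 139 without in NW, and at 177 and 52.8 in ABX. Bhlhe40, a transcription factor of cytokine-producing lymphocytes, stood at 328 and 143 in NW and at 143 and 75.6 in ABX. The chemokine gene Ccl1 stood at 84.9 and 1.82 CPM in NW and at 15.1 and 0.707 in ABX. In ABX the class held 7 Il13 UMIs and as many of Ccl1, so the ABX ratios of both rest on few UMIs. Lineage genes differed little, with log2 ratios of 0.08 and 0.30 for Gata3 and 0.08 and 0.15 for Il1rl1. These ratios describe the cells in which the transcripts were caught and carry no test.

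Outside ILC2-like cells Il5 and Areg were also lower in ABX, while Csf2 was level over all other cells together. In 11707 NW and 11482 ABX cells, Areg had 256 and 23 UMIs (3.57 and 0.409 CPM; log2 -3.12, -3.81 to -2.51) and Il5 had 78 and 10 (1.09 and 0.178 CPM; -2.61, -3.73 to -1.66). These ratios over pooled classes mix level with composition, and the Treg-like class, which had the highest Areg level, numbered 399 cells in NW and 163 in ABX. Csf2 had 187 and 149 UMIs (0.02, -0.30 to 0.34). Il4 had 138 and 77 (1.92 and 1.37 CPM; -0.49, -0.91 to -0.08), and Il13 had 6 and 2, below the 20 UMIs needed to count. Of the 4 genes that passed this minimum, 2 were at least 2-fold lower and none at least 2-fold higher, where 1.23% of 16277 genes were at least 2-fold lower and 10.3% at least 2-fold higher. Over all cells together, 3 of the 5 genes (Il5, Il13 and Areg) were at least 2-fold lower and none higher, where 1.27% of 16410 genes were lower and 10.1% higher by that factor.

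CD4 T-like cells (695 in NW, 641 in ABX) had lower levels of most of the genes in ABX, with 3 of the 4 genes that reached 20 UMIs at least 2-fold lower against 2.06% of 10730 genes, and none at least 2-fold higher, against 2.64%. Il5 went from 46 UMIs in 25 cells to 4 UMIs in 4 cells (13.7 and 1.42 CPM; -3.28, -5.21 to -1.82). Csf2 went from 83 UMIs in 26 cells to 8 in 7 cells (24.7 and 2.83 CPM; -3.13, -4.39 to -2.08), and Areg from 25 UMIs in 13 cells to 3 in 2 cells (7.45 and 1.06 CPM; -2.81, -5.18 to -1.098). Il4 had 14 and 7 UMIs (-0.75, -2.30 to 0.65). The 5 richest NW cells held 67.5% of the Csf2 UMIs of the class, and as a share of cells the Csf2 ratio was -1.78. All 25 Il5-positive CD4 T-like cells of NW had both Gata3 and Il1rl1, and 24 had Cd3e, against 52.1%, 39.1% and 82.8% of the Il5-negative ones. The same 2 genes were found in all 4 ABX cells. Il1rl1 itself was found in 39.1% of the Il5-negative cells in NW and 20.9% in ABX, and its level in the class was lower in ABX (1817 and 687 UMIs; -1.15). How much of the cytokine difference goes with this smaller share of Il1rl1-positive cells was not tested. Retnla, a macrophage product, had 9164 and 2927 UMIs in the CD4 T-like class (-1.40), and its part was not tested either.

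Treg-like cells (399 in NW, 163 in ABX) had Areg but little else. Areg had 126 UMIs in 60 cells of NW and 10 UMIs in 4 cells of ABX (78.5 and 21.1 CPM; -1.90, -2.99 to -0.97), that is, in 15.0% (11.7 to 18.9) and 2.45% (0.673 to 6.16) of cells. In this class 5.44% of 8754 genes were at least 2-fold lower and 4.14% higher, and Areg was the single member that reached 20 UMIs. The highest NW cell held 7 UMIs, so no single cell set the NW value. Of the 60 NW cells, 54 had Foxp3 and 53 Il1rl1, close to the 86.7% and 85.0% of Areg-negative cells, whereas of the 4 ABX cells 1 had Foxp3. Il5 had 10 UMIs in NW and 1 in ABX, and Csf2 had 6 and 3. Transcripts typical of myeloid cells were also lower in the Treg-like class, with 2540 and 109 UMIs of Retnla (-2.78), 799 and 18 of Cxcl2 (-3.71), 233 and 29 of Mrc1 (-1.25) and 28 and 0 of Ccl17. Of 10 genes that IL-4 and IL-13 induce, 5 were at least 2-fold lower and 1 higher, with a median of -1.08 against 0.04 for all genes. The part of such transcripts in the Areg ratio was not tested.

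Csf2 ratios lay on both sides of 0 among the classes. Of 18 classes with at least 50 cells in each library, the interval lay below 0 in 4 and above 0 in 3. Beside ILC2-like and CD4 T-like cells, it lay below 0 in B-like cells (9 and 4 UMIs; -2.50, -4.66 to -0.66), where 1 NW cell held 6 of the 9, and in endothelial-like cells (8 and 2 UMIs; -2.41, -5.68 to -0.08). It lay above 0 in NKT-like cells (5 and 25 UMIs; 1.56, 0.15 to 3.30), with 17 positive ABX cells of which the highest held 7 UMIs. In macrophage-like cells it was 24 and 28 UMIs (0.88, 0.04 to 1.73), with no more than 2 UMIs in any cell. The shares of positive cells, 0.412% and 0.537%, were not above those of B-like cells beyond counting error. The B-like shares rest on 4 positive cells in each library. The macrophage-like shares could thus not be told apart from those of B-like cells, and their source was not tested. Among macrophage-like cells, Gata3 was found in 6 of the 27 Csf2-positive ABX cells and in 2.98% of the rest. With clusters from mRNA alone the macrophage-like ratio was 0.31 (-0.67 to 1.26), and with 50 principal components the NKT-like ratio was 0.93 (-0.99 to 3.41), so that both intervals then included 0. In a proliferating cluster (cluster 15) led by Mki67 and Top2a, Csf2 had 3 and 32 UMIs (3.94, 2.26 to 6.29), but 29 of the 32 were in 1 ABX cell that also had 9 Gata3, 7 Il1rl1, 18 Mki67 and no Cd3e UMIs. Without the cell with the most Csf2 in each library the ratio there was 2.12 (-1.52 to 7.83). In this cluster 3.01% of 9655 genes were at least 2-fold lower and 2.35% higher.
Areg, by comparison, had an interval below 0 in 6 classes and above 0 in none, and Il5 in 2 and none. The 6 were the ILC2-, CD4 T-, Treg-, macrophage- and gdT-like cells and an unnamed cluster (cluster 6) led by Fn1 and Ear2. In macrophage-like cells Areg had 38 and 9 UMIs (-1.43, -2.66 to -0.35; -1.08, -2.34 to 0.03, with clusters from mRNA alone), where 0.988% of 13559 genes were at least 2-fold lower and 5.68% higher. The Areg UMIs of macrophage-like cells sat in 31 of 5823 NW cells and 6 of 5031 ABX cells. These shares were within the limits allowed by B-like cells, which had no Areg UMI, so they could not be told apart from background. In gdT-like cells the 14 NW UMIs all came from 1 cell, which also had 13 Trdc UMIs. None were found in ABX (at least 4.404-fold lower against a floor of 3 UMIs). Cluster 6 had 12 and 0 (at least 2.05-fold lower).

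**Figure D4:**
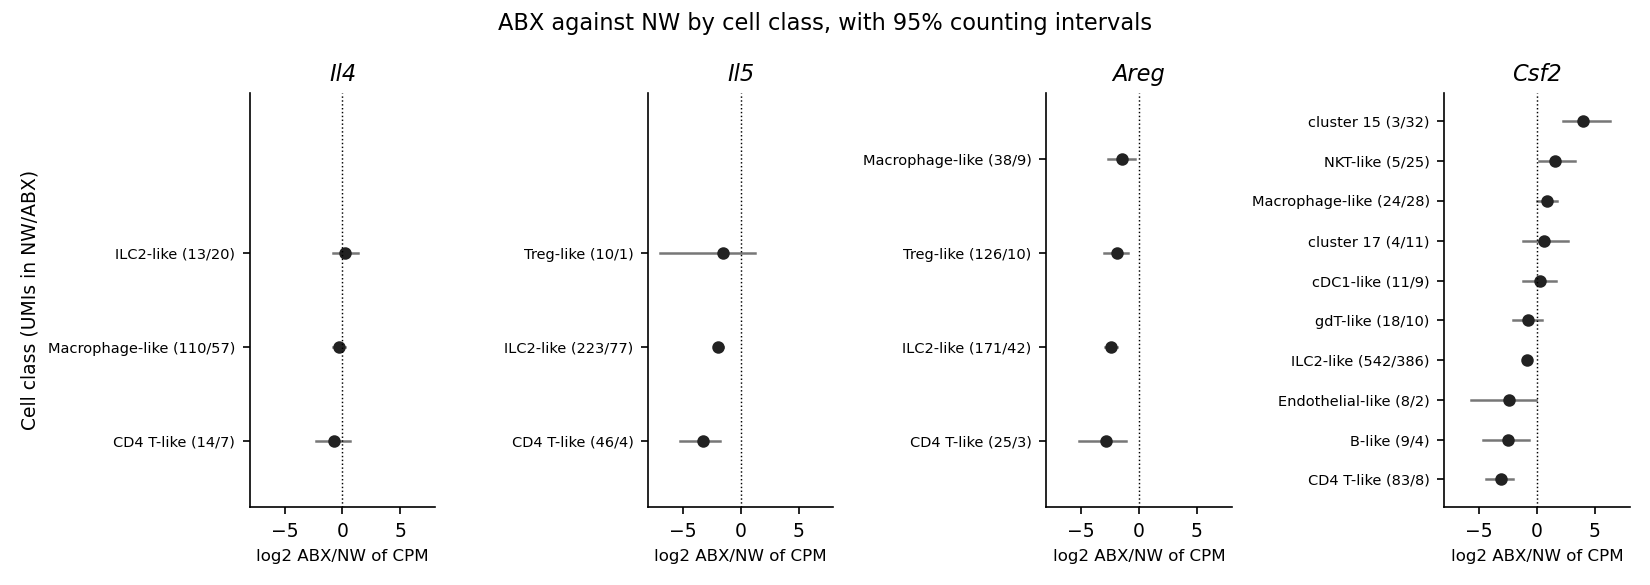
log2 ratio of CPM, ABX over NW (x axis), with 95% counting intervals, by class (y axis, with UMIs in NW and ABX). Classes are shown where a gene had at least 10 UMIs in all and a UMI in each library. Il13 is left out because no class other than ILC2-like cells reached this. Areg in gdT-like cells (14 and 0 UMIs) and in cluster 6 (12 and 0) has no ratio and is not drawn. Points for Il5 and Areg lie left of 0, whereas those of Csf2 lie on both sides.

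Il4 in macrophage-like cells was thin but even. It was detected in 100 of the 5823 cells of NW (90 with 1 UMI) and in 51 of the 5031 of ABX (46 with 1 UMI), at 3.07 and 2.51 CPM (-0.30, -0.78 to 0.18). C1qa was found in 98 of the 100 and 51 of the 51 cells, and Lyve1, a marker of perivascular macrophages, in 86.0% and 78.4%, against 68.9% and 53.5% of Il4-negative Macrophage-like cells. Positive cells had medians of 6974 and 6359 UMIs, above the 5640 and 4099 of the class. Kif3a, whose last base lies 1014 bases from Il4 on the opposite strand, stood at 153.7 CPM in NW and 144.2 in ABX in macrophage-like cells, against 39.4 and 41.0 in ILC2-like cells. Whether reads were counted by strand was not given in the sources used here, so Il4 UMIs in macrophage-like cells cannot be told apart from reads of that neighbourhood.

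Several receptors of these ligands had their highest level in other classes than the ligands, but were found in the ligand classes too. Levels of the highest classes are over both libraries together, among the 18 classes with at least 50 cells in each. Fibroblast-like cells (5 in NW, 89 in ABX) were thus left out. Il5ra, the IL-5 receptor chain, was highest in plasma-like cells (110 CPM) and then B-like cells (71.5). Csf2rb, the common beta chain of the IL-5 and GM-CSF receptors, was highest in mature dendritic cell-like cells (895 CPM), and Csf2ra, the GM-CSF chain, in the cluster led by Fn1 and Ear2 (1072). Il4ra, which serves IL-4 and IL-13, had no clear highest class, with 89.7 CPM in mature dendritic cell-like and 89.0 in NKT-like cells. In ABX it stood at 75.4 in mature dendritic cell-like and 75.2 in ILC2-like cells. Il13ra1 was highest in neutrophil-like cells (113), a class of 63 NW and 57 ABX cells, followed by cDC2-like cells (100). Egfr, the receptor of amphiregulin, was highest in macrophage-like cells (66.5 CPM). In ILC2-like cells themselves, 7 of the 11 receptor genes reached 20 UMIs, 2 were at least 2-fold lower in ABX (Csf2rb -1.42, Csf2rb2 -1.94) and none higher, with a median of -0.67 against 0.00 for all genes. In Treg-like cells Il2rg had 969 and 318 UMIs (0.15), Csf2ra 304 and 50 (-0.84), Il4ra 100 and 36 (0.29) and Csf2rb 80 and 6 (-1.98). Of the 4 genes for shedding of amphiregulin, none passed 2-fold, and the protease gene Adam17 had 312 and 332 UMIs (-0.31).

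Most receptors through which ILC2 are driven were nearly level. Of 27 listed, 25 reached 20 UMIs in ILC2-like cells, 1 was at least 2-fold lower and none higher, with a median of 0.03. For every list counted in ILC2-like cells, the share over all genes was 2.45% at least 2-fold lower and 1.43% at least 2-fold higher. Il1rl1 had 2145 CPM in NW and 2240 in ABX (7347 and 10101 UMIs; log2 0.06, 0.02 to 0.11). Il17rb, the IL-25 receptor, stood at 0.15, the IL-7 receptor gene Il7r at 0.24 and the IL-2 receptor gene Il2ra at 0.26. Nmur1, the receptor for neuromedin U, stood at 0.51 (55 and 103 UMIs).

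All 23 transcription factor genes listed reached 20 UMIs, with a median of -0.11. Gata3, which opens the type 2 locus in ILC2 and T helper cells, had 3902 and 4713 UMIs (-0.12), and Rora, needed for ILC2 development, 2739 and 4526 (0.33). The single one past 2-fold was Bhlhe40, at 180 CPM in NW and 79.6 in ABX (617 and 359 UMIs; -1.18, -1.37 to -0.99). Smaller differences were found for Nfkbid (-0.78), Zeb2 (-0.87) and Tcf7 (-0.83).

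Other secreted products of ILC2 did not move as one. Of 23 listed, 18 reached 20 UMIs, 4 were at least 2-fold lower and 1 at least 2-fold higher, with a median of -0.06. Ccl1 went from 63 to 7 UMIs (-3.57, -4.94 to -2.44), Tnfsf4, which encodes the co-stimulatory OX40 ligand, from 24 to 5 (-2.66) and Hbegf, a growth factor for the same receptor as amphiregulin, from 35 to 16 (-1.53). Penk, an opioid peptide gene, had 15 and 8 UMIs (-1.304, -2.75 to 0.03). Ccl5 went from 252 to 689 UMIs (1.05, 0.84 to 1.27), and Calca, which encodes the neuropeptide CGRP, from 1063 to 2149 (0.62, 0.51 to 0.73). Il3, the neighbour of Csf2, had no UMI in ILC2-like cells of either library, which allows up to 3 UMIs in each.

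Genes that restrain cytokine production had a median of -0.56 over all 15 listed, with 2 at least 2-fold lower and none higher. Zfp36, whose protein speeds the decay of cytokine mRNAs, had 13721 and 10818 UMIs (-0.74), Tnfaip3 stood at -0.79 and Nfkbia at -0.73, while Socs1 (0.62) and Socs2 (0.63), inhibitors of cytokine signalling, were higher in ABX. Past 2-fold were Dusp2 (389 and 241 UMIs; -1.09) and Ctla4 (28 and 10; -1.88). Of 21 immediate early and heat shock genes, 4 were at least 2-fold lower (Egr3 -1.86, Nr4a3 -1.19, Nr4a1 -1.17, Atf3 -1.11) and none higher, with a median of -0.47, but Fos stood at 0.00 and Hspa1a at 0.37. Dusp1 is on both lists. Nr4a1 had 6550 UMIs in NW and 3840 in ABX, and it was also higher in ILC2-like cells with Il5 or Areg than without, at 2921 against 1661 CPM in NW and 1374 against 819 in ABX. Its part in the cytokine ratios was not tested.

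Genes that IL-4 and IL-13 induce were counted in the same class. Of 12 that reached 20 UMIs, 2 were at least 2-fold lower and 1 higher, with a median of -0.78. Those lower were the chemokine genes Ccl22 (669 and 27 UMIs; -5.03) and Ccl17 (24 and 6; -2.40), and the one higher was Tgm2 (12 and 39; 1.303). Ccl22 is also one of the mature dendritic cell markers whose sums of 228 and 23.3 CPM are given above. Retnla, a product of alternatively activated macrophages, had 3243 and 2173 UMIs in ILC2-like cells (-0.97), beside macrophage markers of 1791 and 1166 CPM there. Outside ILC2-like cells, 3 of 13 were at least 2-fold lower and none higher, with a median of -0.51 against 0.08 for all genes. The list of neighbours held genes of the chromosome 11 stretch, Ereg, Epgn and Btc near Areg on chromosome 5, and Hbegf on chromosome 18. Of its 14 genes found in the files, 7 reached 20 UMIs in ILC2-like cells, 1 was at least 2-fold lower (Hbegf) and none higher. Rad50 stood at 0.24, Kif3a at 0.06 and Irf1 at 0.25, each with at least 135 UMIs per library, beside -3.91 for Il13 and -1.93 for Il5 of the same stretch.

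**Figure D5:**
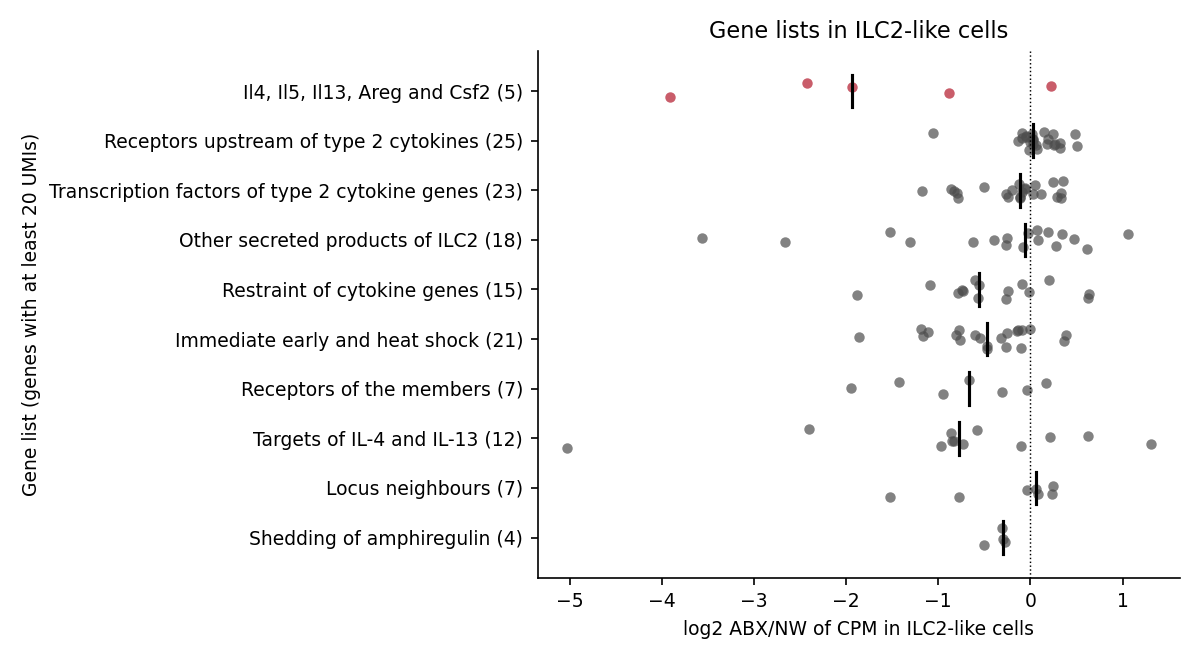
log2 ratio of CPM, ABX over NW, in ILC2-like cells (x axis) for the genes of each list with at least 20 UMIs (y axis, number in brackets). Each point is a gene, red points are the 5 genes studied, and black bars are medians, which lay at 0.03 for the upstream receptors and -0.78 for the targets of IL-4 and IL-13. Lists with more points left of 0 include immediate early genes and restraint genes.

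The same lists were counted in the T cell classes. Over all genes, 2.06% were at least 2-fold lower and 2.64% higher in CD4 T-like cells, and 5.44% and 4.14% in Treg-like cells. In CD4 T-like cells, 3 of 24 upstream receptor genes were at least 2-fold lower and 1 higher, with a median of -0.31 against 0.01 for all genes. Those lower were Il1rl1 (-1.15), Klrg1 (304 and 126 UMIs; -1.02), a receptor of mature type 2 lymphocytes, and Ramp3 (334 and 84; -1.74). Of 23 transcription factor genes, Pparg, which VAT Treg cells and ILC2 depend on, was lower (156 and 61 UMIs; -1.11) and Tox higher (99 and 200; 1.26). Among Treg-like cells no upstream receptor gene of 21 was at least 2-fold lower and 2 were higher. Of 23 transcription factor genes there, 2 were at least 2-fold lower (Irf4, 77 and 6 UMIs, -1.92; Nfil3, -1.55) and 3 higher (Tcf7, 45 and 60, 2.17; Bhlhe40, 37 and 32, 1.55; Rel, 1.52). Bhlhe40 thus lay above 0 in Treg-like and below 0 in ILC2-like cells, a difference that was not tested. Of 11 secreted products, 3 were lower and 3 higher, among them the anti-inflammatory cytokine gene Il10 (159 and 16 UMIs; -1.55) and Ccl5 (280 and 180; 1.12).

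Across the 18 classes in both libraries (36 points), the genes with levels most like Il5 were Pcsk1 (r = 0.86), Ccdc184 (0.85) and Map6 (0.83), and Il5 itself was the gene most like Il13 (0.82). Pcsk1 (0.80) and Il5 (0.79) were most like Areg, and Hlf (0.82) and Ppp1cc (0.82) most like Csf2. For Il4 the highest r was 0.67, for Zxdc. The second gene for Il13 was Mcpt4 (0.80), whose UMIs in ILC2-like cells were those of the mast cell-rich NW cells above. Points of a library share its depth and preparation, 12311 genes were searched, and these values are descriptive.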

How the data were processed

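CD45+ cells of VAT were profiled on the BD Rhapsody platform with whole-transcriptome and AbSeq libraries. Per the study's methods, the authors counted molecules with the BD Rhapsody pipeline on GRCm38 (mm10 in the submitters' processing notes, with R 3.6.0 and Seurat 3.0.1). The deposited values are UMI counts per cell after error correction, with 10 antibodies. Whether counting used strand was not given in the sources used here. Depth per library stands in the report.

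Cells passing the filters were clustered with Seurat 5.3.0 in R 4.3.3 from 2000 variable genes, less the 5 genes studied, 30 principal components and 8 antibodies, at resolution 0.6. Classes were named from marker lists, by rules written after the clusters were seen. Doublets were kept; Scrublet (scanpy 1.11.5) called 344 cells in NW (2.76%), and in ABX its automatic threshold gave 1 cell, so it did not work there. Summed counts were compared as CPM with exact Poisson intervals, and shares with Clopper-Pearson intervals (scipy 1.17.1). Scripts were tested on simulated data. A gene counted as lower or higher had at least 20 UMIs in both libraries together and a 2-fold ratio. The genes and lists were chosen with earlier results of these data known, and the 5 genes are described whatever their values; genes most like them were taken by the highest r over classes with at least 200 UMIs, and over ILC2-like cells by the smaller log2 ratio of both libraries. Alternatives covered filters, doublets, clustering, a marker gate, depth and single cells; those leaving out cells with mast cell genes, the 5 cells richest in a gene or doublets at the NW threshold in both libraries, and those for single classes other than ILC2-like cells, were chosen after seeing the data. Gene coordinates came from GENCODE on GRCm38. The values of 1 gene on the upstream receptor list are not reported here.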

Additional observations from a re-analysis of the deposited data

Results flagged for a closer look

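Csf2 had ratios on opposite sides of 0 in different cell classes, with counting intervals that excluded 0 under the main processing. The log2 ratio of ABX over NW was -3.13 in CD4 T-like, -2.50 in B-like, -2.41 in endothelial-like and -0.89 in ILC2-like cells, and 0.88 in macrophage-like cells, 1.56 in NKT-like cells and 3.94 in the proliferating cluster. The difference between classes was not tested, since each condition had 1 library. Of the 32 Csf2 UMIs of the proliferating cluster in ABX, 29 came from 1 cell, and of the 9 of B-like cells in NW, 6 came from 1 cell. All 3 classes above 0 had intervals that included 0 under some alternative: the macrophage-like ratio was 0.31 (-0.67 to 1.26) with clusters from mRNA alone, the NKT-like ratio 0.93 (-0.99 to 3.41) with 50 principal components, and that of the proliferating cluster 2.12 (-1.52 to 7.83) without the cell with the most Csf2 in each library. The macrophage-like shares of positive cells were also not above those of B-like cells beyond counting error.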

How the results depend on the processing

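No paired analysis was possible because each condition had 1 library. In ILC2-like cells the log2 ratios kept their sign in 16 of 16 alternatives for Il5 (-2.07 to -1.45), Areg (-2.52 to -1.78) and Csf2 (-1.52 to -0.27). For Il13 they kept it in the 14 of 14 that gave a ratio. None could be formed for Il13 with the gate described below, which held none of its ABX UMIs. The same was true without the 5 cells with the most UMIs in each library, which held all of its UMIs. Il4 kept it in 14 of 16. Outside, Areg (-4.23 to -2.81) and Il5 (-3.08 to -2.04) kept theirs in 15 of 15, and Csf2 in 9 of 15. The cause of the shifts below was not tested unless the setting states it. Counted as the share of cells with a UMI, Il13 gave -0.54 over all cells and -0.70 in ILC2-like cells, Areg -1.78 and Csf2 -0.27 in ILC2-like cells, and Csf2 0.21 over all cells, where the mean over cells of the share of UMIs gave -0.37. Without the 5 cells with the most UMIs in each library, a setting chosen after seeing the data, Il13 over all cells gave -1.01, Csf2 in ILC2-like cells -0.60 and Areg outside them -4.23. Csf2 outside gave -0.31 as a mean over cells with at least 1000 UMIs. This weights cells alike, as thinning each to 1000 does on average, so it does not separate depth from weighting. With cells thinned to 1000 UMIs, the shares of ILC2-like cells with a UMI fell, as fewer UMIs per cell must give. They were 0.335% in NW and 0.468% in ABX for Il4, 4.23% and 1.299% for Il5 and 2.69% and 0.737% for Areg. For Csf2 they were 6.76% and 5.47%, and for Il13 0.123% in ABX. A gate of Gata3 and Il1rl1 UMIs without T cell, B cell or macrophage UMIs, which admits fewer cells, gave -1.45 for Il5 and -1.52 for Csf2. It held 1.99% and 8.25% of Il4 UMIs in NW and ABX, 18.9% and 46.0% of Il5, 11.6% and 0% of Il13, 13.1% and 35.4% of Areg and 24.1% and 22.1% of Csf2. Of its cells, 8.88% had Il5, 4.25% Areg and 12.0% Csf2 in NW, 0% had Il13 in ABX, and of its Il5-positive NW cells 43.5% had Csf2 and 4.35% Areg. With at least 50 UMIs, or with no filter and 0 taken as 0.5, 128 or 2085 genes were at least 2-fold lower and 50 or 1398 higher in ILC2-like cells, against 265 and 155. Outside, 120 or 1209 were lower and 1094 or 6037 higher, against 201 and 1682. The counts behind Il13 and Il4 limit both to large differences.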

Other observations

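Mast cell granule genes, which are products of a cell type known to make type 2 cytokines, differed between the libraries over all cells. Cpa3 had 921 UMIs in NW and 39 in ABX, Mcpt4 506 and 13, Tpsb2 743 and 13, and Cma1 523 and 105. Nearly all of the UMIs of these 4 genes within ILC2-like cells of NW came from 3 cells, and outside ILC2-like cells 4 NW cells held 1028 of 1317. The 4 NW cells outside held 2 Il4 UMIs and none of the other 4 genes studied.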
